A study of Mus musculus with 18 samples.

Results

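The genes described here encode aminoacyl-tRNA synthetases, the enzymes that join amino acids to their tRNAs. A list of 36 symbols was matched to the gene symbols of the count table, which holds 32765 symbols in all. Of the 36 genes, 20 make the enzymes of the cytosol and 16, whose symbols end in 2, make those of mitochondria. Their transcripts were measured in PyMT-BO1 cells, a luminal B-like mouse breast cancer line on a C57BL/6 background. Integrin β3 was knocked out in every group, and the knockout cells then received a retrovirus with the human integrin β3 (hβ3), with a β3 mutant deficient in signalling (Δβ3) or with an empty vector (pMx). Each of these 3 lines was treated for 24 h with DMSO, the solvent, or with 10 nM docetaxel, a taxane that binds and stabilises microtubules. There were 3 biological replicate cultures in each of the 6 groups, 18 libraries in all. Each construct is represented by 1 line, so effects of the construct and other differences between these lines cannot be told apart.

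A synthetase recognises 1 amino acid and its set of tRNAs, activates the amino acid with ATP and transfers it to the end of the tRNA, which the ribosome then uses. Mitochondria translate their own genome with a separate set of nuclear-encoded synthetases, although Gars and Kars each provide both the cytosolic and the mitochondrial enzyme. In the cytosol several synthetases are held together with scaffold proteins in the multi-synthetase complex. Many cytosolic synthetase genes are known targets of the transcription factor ATF4, which is translated when the initiation factor eIF2 is phosphorylated under amino acid shortage or other stress.

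Library totals ran from 7972612 to 18961392 counts. Levels are given as counts per 1e6 counts of the TMM-scaled library size (CPM). Itgb3 was at 0.32 to 1.30 CPM in the pMx libraries and at 32.9 to 130.6 CPM in the other lines. The 32.9 CPM was in Δβ3 docetaxel culture 2. Reads were counted on the mouse genome, so for the human hβ3 these values do not measure the full level of the introduced gene. The luminal keratin gene Krt8 was at 645.6 to 1906 CPM, while the luminal markers Elf3 and Gata3 were at 0 in every library and 3 of the 12 luminal markers were tested. A pair of libraries stood apart by transcripts of heart muscle. A set of 23 heart muscle markers summed to 50410 CPM in culture 2 of the docetaxel-treated Δβ3 line and to 6068 CPM in culture 1 of its DMSO group, against 195.6 to 2540 CPM in the other 16 libraries. In Δβ3 docetaxel culture 2 the luminal markers summed to 1190 CPM, below the 1981 to 3416 CPM of those 16 libraries. The biological coefficient of variation was 36% over 18 libraries and 13.2% over the 16. Results are therefore given from all 18 libraries, with the fit on 16 libraries beside them where a synthetase call or the count of a gene list differs.

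Of the 36 genes, 26 passed the filter on low counts, 15 of the 20 cytosolic and 11 of the 16 mitochondrial ones. The other 10 were not tested. Among cytosolic genes these were Farsb and Nars, with 0 and 1 counts over all libraries, Wars with 9, Kars with 38 and Mars with 71. Among mitochondrial genes they were Pars2, Rars2 and Yars2, each with 0 counts, Wars2 with 3 and Cars2 with 61. Each of these 10 genes has at least 2 transcript models in the table. All 10 genes with a single model were tested (7 cytosolic and 3 mitochondrial), against 16 of the 26 genes with 2 or more. Reads that fit several models may be missing from such counts, so these genes are not shown to be silent, and levels of different synthetases are not compared.

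Docetaxel lowered the transcripts of most measured cytosolic synthetases. As the mean response of the 3 lines, 11 of the 15 tested cytosolic genes fell and 0 rose at an adjusted p under 0.05 in edgeR's quasi-likelihood test. Over all 12171 tested genes, 7.64% fell and 7.85% rose. The median log2 fold change of the 15 genes was -0.42 (range -0.56 to 0.52), beside 0.06 over all tested genes, and 14 of the 15 had a negative value. The 11 genes that fell were Aars, Cars, Eprs, Gars, Hars, Iars, Lars, Rars, Tars, Vars and Yars. In RNA from whole cultures, fewer cells of a type and less RNA per cell cannot be told apart.

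Yars, the tyrosyl-tRNA synthetase gene (chromosome 4, 129189760 to 129219607, plus strand, mm10), had the smallest p of the family. With DMSO, Yars had 237, 239 and 247 CPM in the pMx cultures, 308, 247 and 242 in Δβ3 and 318, 303 and 313 in hβ3. With docetaxel, Yars had 151, 162 and 161 CPM in pMx, 182, 143 and 159 in Δβ3 and 241, 252 and 234 in hβ3. Every docetaxel culture was below every DMSO culture of its line, and the hβ3 cultures with docetaxel were about level with the pMx cultures with DMSO. The mean log2 fold change was -0.56 ± 0.07 (SE; adjusted p = 2.59e-05), a fall of 32.3%. Aars encodes the alanyl-tRNA synthetase (chromosome 8, 111033144 to 111057664, plus strand). With DMSO, Aars had 643, 647 and 664 CPM in the pMx cultures, 663, 661 and 651 in Δβ3 and 849, 887 and 830.1 in hβ3. With docetaxel, Aars had 509, 478 and 481 CPM in pMx, 487, 407 and 454 in Δβ3 and 716, 746 and 681 in hβ3. The docetaxel and DMSO cultures did not overlap in any line, and within each line the DMSO values lay close together. The log2 fold change of Aars was -0.41 ± 0.06 (SE; adjusted p = 0.000123). In the GENCODE M21 annotation 15.1% of the exonic bases of Aars are shared with other genes, mostly with Exosc6 on the same strand.

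Gars, which makes the glycyl-tRNA synthetase of both compartments, lies on chromosome 6, 55038007 to 55079500, plus strand. With DMSO, Gars had 766, 786 and 793 CPM in the pMx cultures, 1006, 808 and 778 in Δβ3 and 1056, 1007 and 1111 in hβ3. With docetaxel, Gars had 547, 583 and 564 CPM in pMx, 621, 501 and 555 in Δβ3 and 838, 859 and 804 in hβ3. Its docetaxel cultures were the lower ones in every line, with a log2 fold change of -0.48 ± 0.07 (SE; adjusted p = 0.000126). Hars makes the histidyl-tRNA synthetase. With DMSO, Hars had 228, 249 and 229 CPM in the pMx cultures, 285, 239 and 224 in Δβ3 and 343, 331 and 330 in hβ3. With docetaxel, Hars had 138, 179 and 169 CPM in pMx, 179, 164 and 164 in Δβ3 and 252, 277 and 268 in hβ3. Here too the treated cultures lay below the untreated ones of each line, with a log2 fold change of -0.48 ± 0.07 (SE; adjusted p = 0.000157). Tars makes the threonyl-tRNA synthetase (chromosome 15, 11382301 to 11399665, minus strand). With DMSO, Tars had 262, 286 and 276 CPM in the pMx cultures, 321, 289.5 and 291 in Δβ3 and 352, 405 and 362 in hβ3. With docetaxel, Tars had 191, 223 and 206 CPM in pMx, 228, 172 and 223 in Δβ3 and 293, 324 and 291 in hβ3. The treated cultures were lower in all 3 lines, and the log2 fold change was -0.42 ± 0.07 (SE; adjusted p = 0.00062). Vars makes the valyl-tRNA synthetase. With DMSO, Vars had 28.0, 32.0 and 29.0 CPM in the pMx cultures, 27.0, 26.7 and 30.2 in Δβ3 and 31.5, 35.3 and 36.5 in hβ3. With docetaxel, Vars had 18.4, 20.8 and 19.9 CPM in pMx, 18.7, 17.1 and 21.4 in Δβ3 and 25.7, 29.9 and 25.4 in hβ3. The groups did not overlap within a line, and the log2 fold change was -0.50 ± 0.08 (SE; adjusted p = 0.000422).

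Cars, for the cysteinyl-tRNA synthetase, was measured from 25 to 166 counts per library. With DMSO, Cars had 7.70, 7.20 and 7.80 CPM in the pMx cultures, 9.38, 7.37 and 8.13 in Δβ3 and 11.5, 7.81 and 10.8 in hβ3. With docetaxel, Cars had 5.50, 5.98 and 4.59 CPM in pMx, 5.24, 3.88 and 5.20 in Δβ3 and 8.90, 8.34 and 10.0 in hβ3. The hβ3 groups overlapped, while the pMx and Δβ3 groups did not, and the mean log2 fold change was -0.48 ± 0.12 (SE; adjusted p = 0.0103). In Δβ3 alone its log2 fold change was -0.79 ± 0.21 (SE; adjusted p = 0.031), and -0.56 ± 0.22 (adjusted p = 0.102) without the 2 libraries high in heart muscle transcripts. The other 2 tested cytosolic genes outside the complex missed the threshold. The log2 fold change was -0.34 ± 0.16 (SE; adjusted p = 0.182) for the seryl-tRNA synthetase gene Sars and -0.13 ± 0.14 (SE; adjusted p = 0.574) for Farsa, a subunit gene of the phenylalanyl-tRNA synthetase. Of the 12 cytosolic genes outside the multi-synthetase complex 9 were tested and 7 fell, with a median of -0.48.

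The multi-synthetase complex holds the products of 8 of the cytosolic genes, of which 6 were tested and 4 fell (5 with 16 libraries), with a median log2 fold change of -0.35. Lars makes the leucyl-tRNA synthetase, which is also known as a leucine sensor upstream of mTORC1. With DMSO, Lars had 512, 485 and 468 CPM in the pMx cultures, 362, 442 and 428 in Δβ3 and 607, 576 and 619 in hβ3. With docetaxel, Lars had 338, 327 and 318 CPM in pMx, 339, 304 and 309.9 in Δβ3 and 484, 486 and 458 in hβ3. Its treated cultures lay below the untreated ones in each line, with a log2 fold change of -0.43 ± 0.06 (SE; adjusted p = 0.000126). Iars makes the isoleucyl-tRNA synthetase (chromosome 13, 49682100 to 49734267, plus strand). With DMSO, Iars had 434, 432 and 414 CPM in the pMx cultures, 294, 407 and 379.5 in Δβ3 and 534, 551 and 574 in hβ3. With docetaxel, Iars had 308, 283 and 288 CPM in pMx, 283, 264 and 259 in Δβ3 and 437, 417 and 397 in hβ3. The ranges did not overlap within any line, although Δβ3 DMSO culture 1 stood lower than the other Δβ3 DMSO cultures. The log2 fold change of Iars was -0.46 ± 0.07 (SE; adjusted p = 0.000182). Eprs makes the bifunctional enzyme for glutamate and proline, and its treated cultures were lower in every line, with a log2 fold change of -0.30 ± 0.06 (SE; adjusted p = 0.00235).

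Rars makes the arginyl-tRNA synthetase of the complex (chromosome 11, 35808381 to 35834506, minus strand). With DMSO, Rars had 456, 486 and 498 CPM in the pMx cultures, 246, 519.7 and 478 in Δβ3 and 728, 884 and 759.9 in hβ3. With docetaxel, Rars had 308, 359.7 and 358 CPM in pMx, 386, 244 and 379.9 in Δβ3 and 623, 629 and 574 in hβ3. Δβ3 DMSO culture 1 and Δβ3 docetaxel culture 2, the libraries high in heart muscle transcripts, had the lowest values of their groups. The log2 fold change of Rars was -0.39 ± 0.13 (SE; adjusted p = 0.0459) with 18 libraries and -0.41 ± 0.05 (adjusted p = 3.29e-07) with 16. Leaving out 1 library at a time ended this call in 15 of 18 cases, with the largest adjusted p, 0.104, without hβ3 DMSO culture 2. The other 11 called synthetase genes (10 cytosolic and 1 mitochondrial) kept their call in all 18 cases. Dars, for the aspartyl-tRNA synthetase, had a log2 fold change of -0.14 ± 0.08 (SE; adjusted p = 0.322) with 18 libraries and -0.15 ± 0.05 (adjusted p = 0.0179) with 16. Qars, for the glutaminyl-tRNA synthetase, was the 1 cytosolic gene with a positive value, 0.52 ± 0.29 (SE; adjusted p = 0.256), from 7 to 57 counts per library. Δβ3 docetaxel culture 2 had its highest level, 6.05 CPM, against 0.69 to 3.71 CPM in the other 17 libraries.

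**Figure D1:**
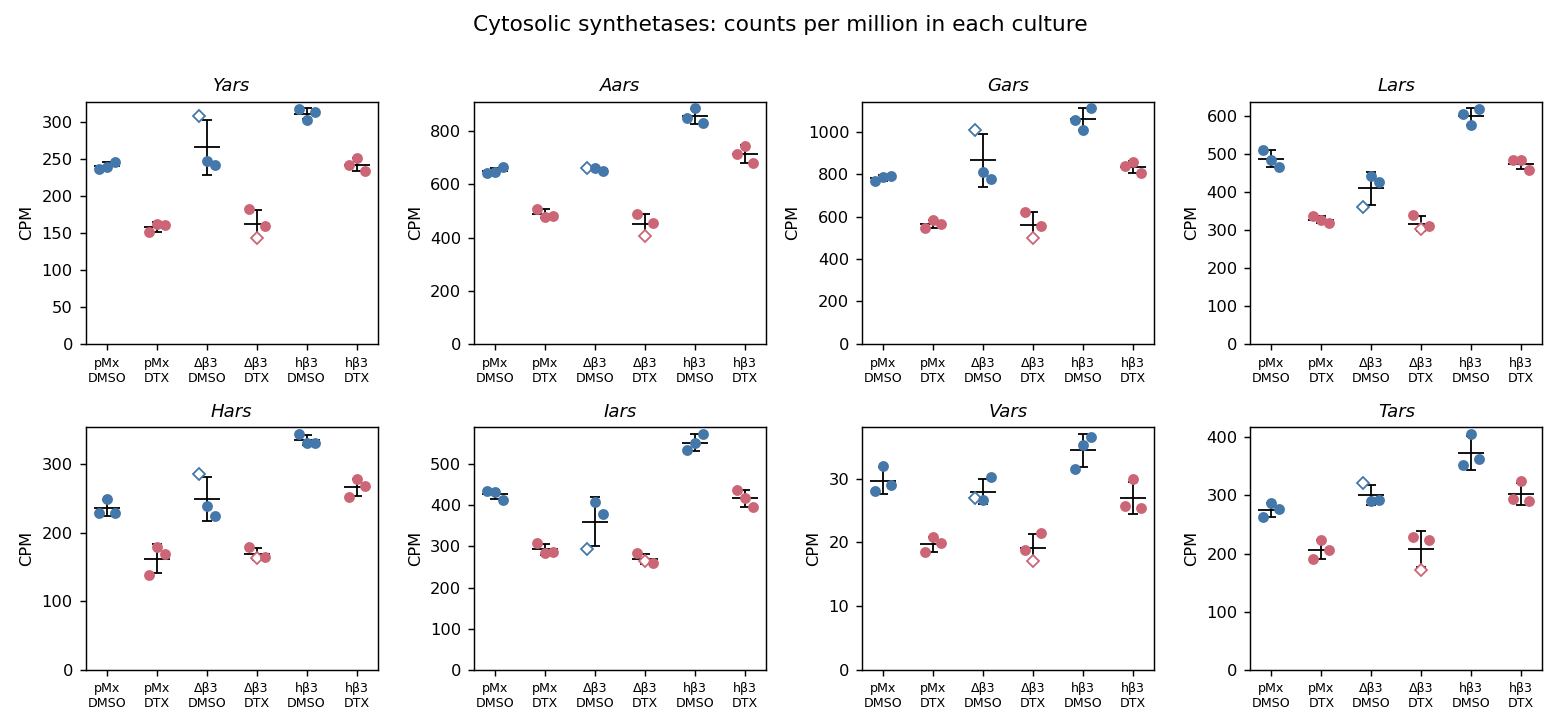
CPM (vertical axis, from 0) of the 8 cytosolic synthetase genes with the smallest p in each of the 18 cultures, by line and treatment (DTX, docetaxel). Points are cultures, bars are the mean and SD of 3, and open diamonds are the 2 libraries high in heart muscle transcripts; in each panel the docetaxel points of a line lie below its DMSO points, and hβ3 is the highest line in DMSO and in docetaxel by the group mean.

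Docetaxel cultures lay below DMSO cultures without overlap in every line for 9 of the 15 tested cytosolic genes, Aars, Eprs, Gars, Hars, Iars, Lars, Tars, Vars and Yars. The same held for 3.30% of all tested genes. Leaving out the 2 libraries high in heart muscle transcripts added Rars, for 10 of 15, with 5.87% of all tested genes. With those 16 libraries, 12 of the 15 cytosolic genes fell, Dars being the added one, with a median of -0.40, beside 14.3% of all tested genes lower and 15.7% higher.

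Among mitochondrial synthetases, 1 of the 11 tested genes fell with docetaxel and 0 rose with 18 libraries, near the 7.64% of all tested genes that fell, and the median log2 fold change was -0.09 (range -0.43 to 0.35). The gene that fell was Mars2, for the mitochondrial methionyl-tRNA synthetase (chromosome 1, 55237177 to 55248470, plus strand). With DMSO, Mars2 had 62.7, 66.4 and 57.7 CPM in the pMx cultures, 46.8, 60.7 and 52.9 in Δβ3 and 80.4, 80.2 and 81.8 in hβ3. With docetaxel, Mars2 had 47.0, 42.1 and 44.0 CPM in pMx, 42.2, 38.0 and 40.4 in Δβ3 and 62.3, 62.9 and 59.9 in hβ3. Treated cultures were below untreated ones in every line, and the log2 fold change was -0.43 ± 0.07 (SE; adjusted p = 0.000371). Without the 2 libraries high in heart muscle transcripts, 5 of the 11 genes fell, with a median of -0.15, beside 14.3% of all tested genes. Beside Mars2, at -0.43 ± 0.05 (adjusted p = 3.99e-07), these were Ears2, Nars2, Sars2 and Vars2. The sets also differ in counts. Per library the cytosolic genes summed to 2533 to 5421 CPM and the mitochondrial genes without Lars2 to 167.2 to 286.3 CPM. A missed call at low counts does not show an unchanged level. The sets differ in transcript models as well. Of tested genes with 1 model, 7 of 7 cytosolic and 1 of 3 mitochondrial ones fell (7 and 3 with 16 libraries). Of those with 2 or more, 4 of 8 and 0 of 8 fell (5 and 2 with 16). The parts of the counts and of the number of models in the difference between the sets were not tested.

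The mitochondrial glutamyl-tRNA synthetase gene Ears2 shows where the fits part. With DMSO, Ears2 had 33.1, 35.6 and 36.3 CPM in the pMx cultures, 41.2, 32.0 and 37.2 in Δβ3 and 33.9, 35.2 and 37.8 in hβ3. With docetaxel, Ears2 had 25.2, 27.0 and 25.2 CPM in pMx, 26.3, 59.5 and 23.5 in Δβ3 and 31.1, 33.7 and 34.6 in hβ3. Δβ3 docetaxel culture 2 had the highest Ears2 level of all libraries, while the other 2 cultures of that group were below the Δβ3 DMSO cultures. The mean log2 fold change of Ears2 was -0.19 ± 0.14 (SE; adjusted p = 0.422) with 18 libraries and -0.33 ± 0.06 (adjusted p = 0.000158) with 16. Sars2, for the mitochondrial seryl-tRNA synthetase, followed the same course. With DMSO, Sars2 had 20.1, 18.5 and 21.7 CPM in the pMx cultures, 17.97, 20.7 and 22.4 in Δβ3 and 17.5, 20.1 and 17.5 in hβ3. With docetaxel, Sars2 had 13.8, 12.3 and 13.3 CPM in pMx, 13.7, 33.5 and 12.8 in Δβ3 and 15.8, 14.7 and 14.9 in hβ3. Its value moved from -0.31 ± 0.15 (SE; adjusted p = 0.196) to -0.52 ± 0.07 (adjusted p = 3.79e-06), and without the same 2 libraries its treated cultures were below the untreated ones in each line. The asparaginyl gene Nars2 moved from -0.09 ± 0.15 (SE; adjusted p = 0.732) to -0.28 ± 0.09 (adjusted p = 0.0143), and the valyl gene Vars2 from -0.29 ± 0.13 (SE; adjusted p = 0.137) to -0.35 ± 0.09 (adjusted p = 0.00437).

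Fars2, for the mitochondrial phenylalanyl-tRNA synthetase, was at 42.5 CPM in Δβ3 docetaxel culture 2 and at 9.67 to 13.9 CPM in the other 17 libraries. Its log2 fold change was 0.32 ± 0.21 (SE; adjusted p = 0.356) with 18 libraries and 0.01 ± 0.09 (adjusted p = 0.967) with 16. In that culture Nars2 was at 25.9 CPM beside 13.0 and 11.8 CPM in the other cultures of its group, and the heart muscle markers summed to 50410 CPM. The part of these transcripts in the levels of mitochondrial synthetases was not tested. Aars2, Hars2, Iars2 and Tars2, for alanine, histidine, isoleucine and threonine, had log2 fold changes from -0.10 to 0.04 with 18 libraries, and none of them passed the test in either fit.

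**Figure D2:**
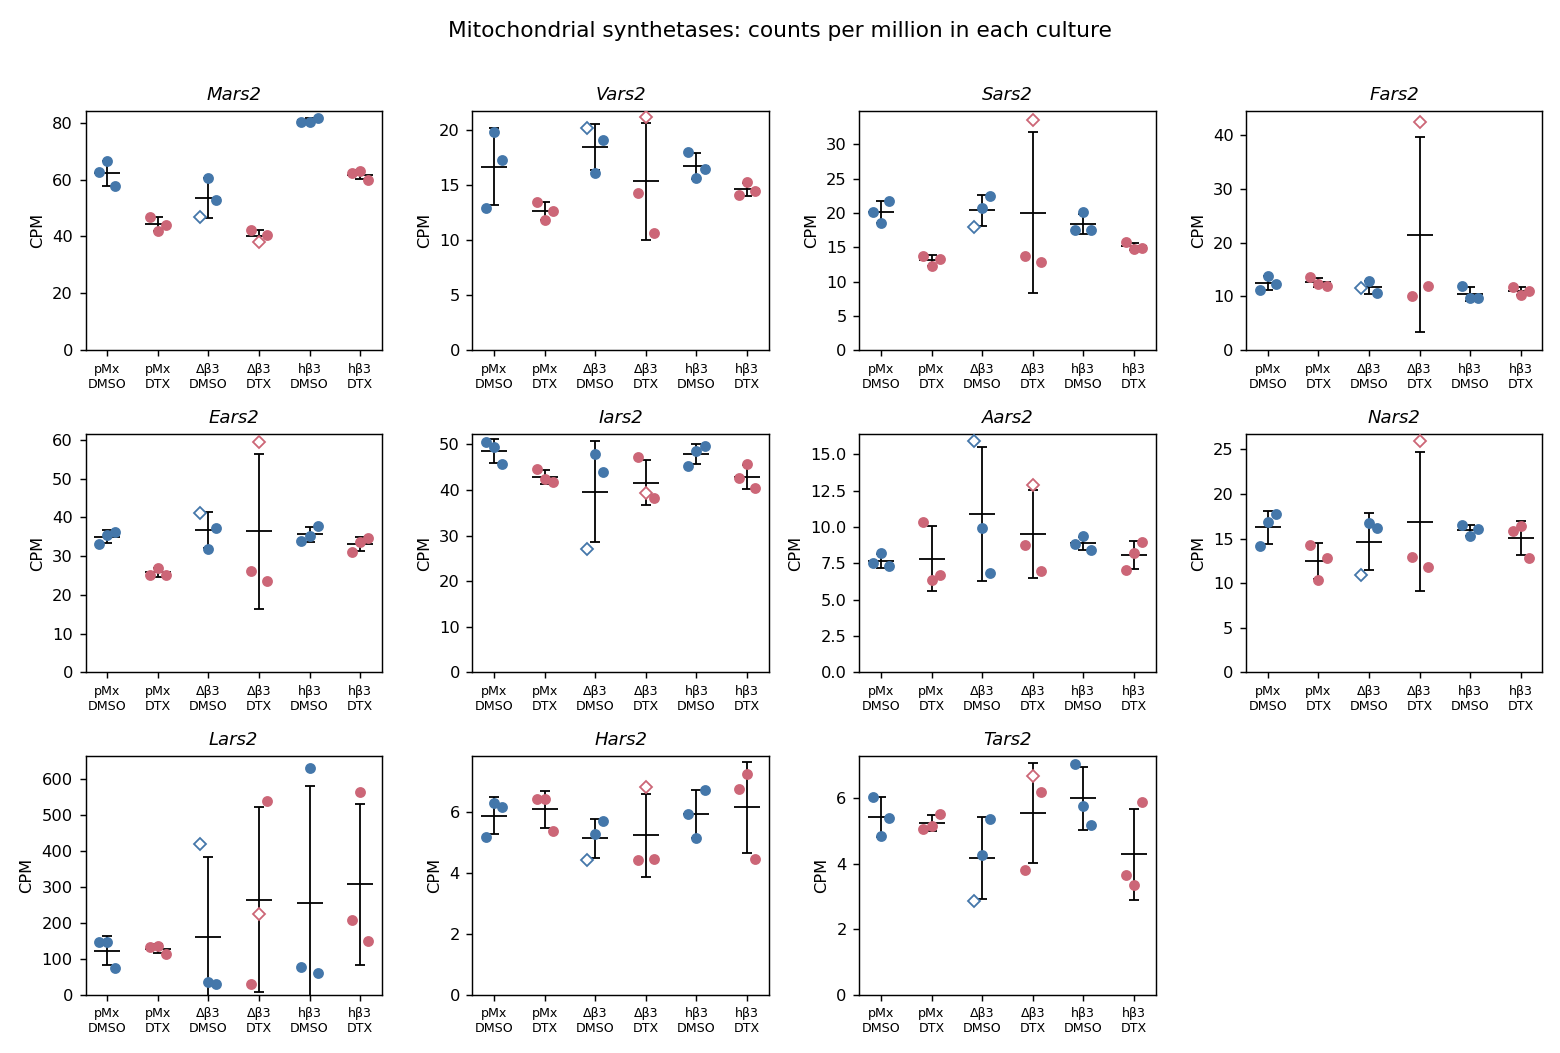
CPM (vertical axis, from 0) of the 11 tested mitochondrial synthetase genes in each culture, by line and treatment (DTX, docetaxel), with mean and SD of 3 (bars cut at 0 for Lars2). Mars2 is lower with docetaxel in every line; for Ears2, Fars2, Nars2 and Sars2 the open diamond of Δβ3 docetaxel culture 2, at 59.5, 42.5, 25.9 and 33.5 CPM, is the highest point.

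Lars2, the mitochondrial leucyl-tRNA synthetase gene, varied far more between replicate cultures than the rest of the family. With DMSO, Lars2 had 147, 146 and 75.2 CPM in the pMx cultures, 419, 35.2 and 30.3 in Δβ3 and 78.0, 630.2 and 59.7 in hβ3. With docetaxel, Lars2 had 133, 137 and 114 CPM in pMx, 29.9, 224 and 540.3 in Δβ3 and 207, 565 and 149 in hβ3. Single cultures of 4 groups were high, and treated and untreated cultures overlapped in each line. The log2 fold change was 0.35 ± 0.68 (SE; adjusted p = 0.773) with 18 libraries and 1.16 ± 0.67 (adjusted p = 0.242) with 16. A pair of non-coding transcripts, named after their values were seen, is given beside it. Mir6236 was at 115.7, 201.9 and 195.1 CPM in hβ3 DMSO culture 2, hβ3 docetaxel culture 2 and Δβ3 docetaxel culture 3, where Lars2 was highest. AK144265 was at 385.3, 393.4 and 402.3 CPM in the same libraries. In Δβ3 DMSO culture 1, where Lars2 was at 419 CPM, Mir6236 was at 50.9 and AK144265 at 31.2 CPM. Because of this spread Lars2 was left out of the sum of mitochondrial genes below.

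**Figure D3:**
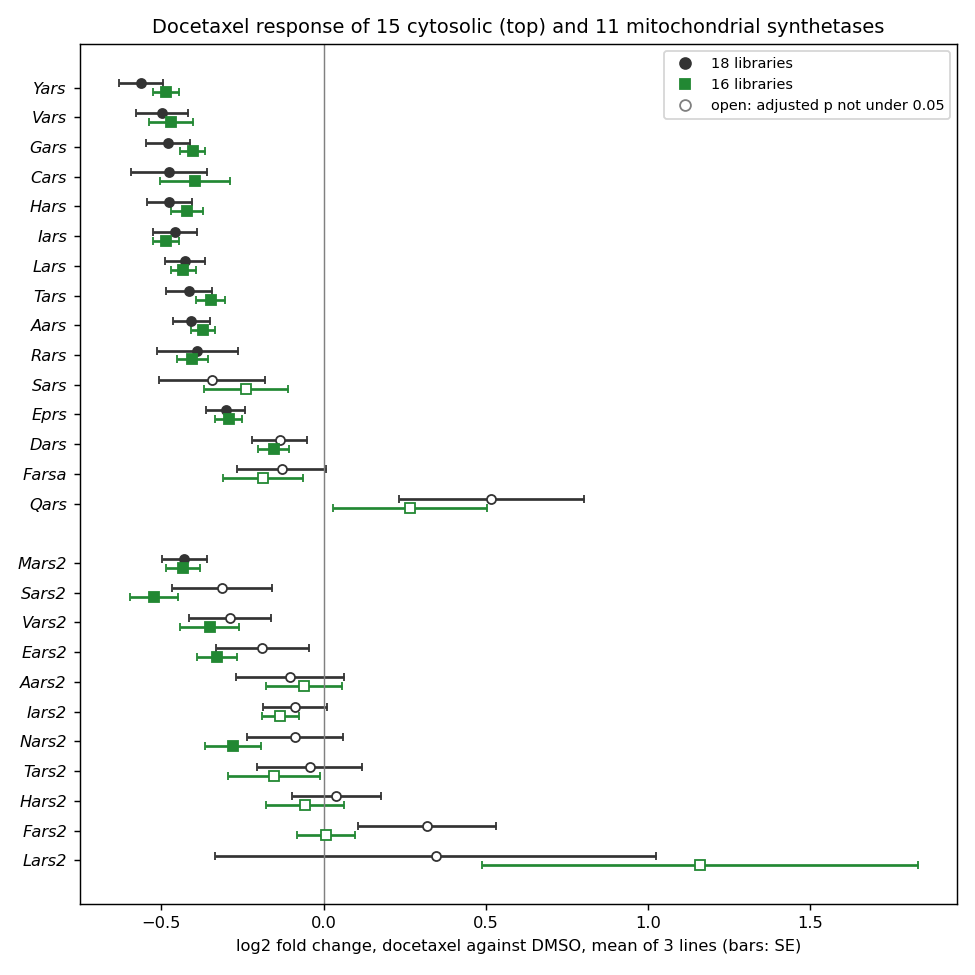
Log2 fold change of docetaxel against DMSO as the mean of 3 lines (horizontal axis, bars are SE) for each tested synthetase gene, cytosolic above and mitochondrial below, with 18 libraries (circles) and 16 libraries (squares); filled symbols passed the test. Of the 15 cytosolic genes 11 are filled circles below 0, of the 11 mitochondrial genes 1.

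Summed over the 15 tested genes, cytosolic synthetase transcripts made up 4042 CPM ± 33.1 in pMx with DMSO and 2909 ± 57.1 with docetaxel (SD, n = 3 for each group), so that the treated mean was 72.0% of the untreated one. In Δβ3 the sums were 3954 ± 95.7 and 2826 ± 279 CPM, or 71.5% (74.4% without the 2 libraries high in heart muscle transcripts). In hβ3 they were 5382 ± 54.5 and 4287 ± 157 CPM, or 79.7%. The 10 tested mitochondrial genes without Lars2 summed to 230.4 ± 8.49 CPM with DMSO and 183 ± 9.51 with docetaxel in pMx (79.4%). In hβ3 they summed to 246.5 ± 2.52 and 212.2 ± 5.28 CPM (86.1%). In Δβ3 they summed to 215.2 ± 14.5 and 212.4 ± 64.6 CPM (98.7%), and the treated mean was 78.5% of the untreated one with 16 libraries.

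**Figure D4:**
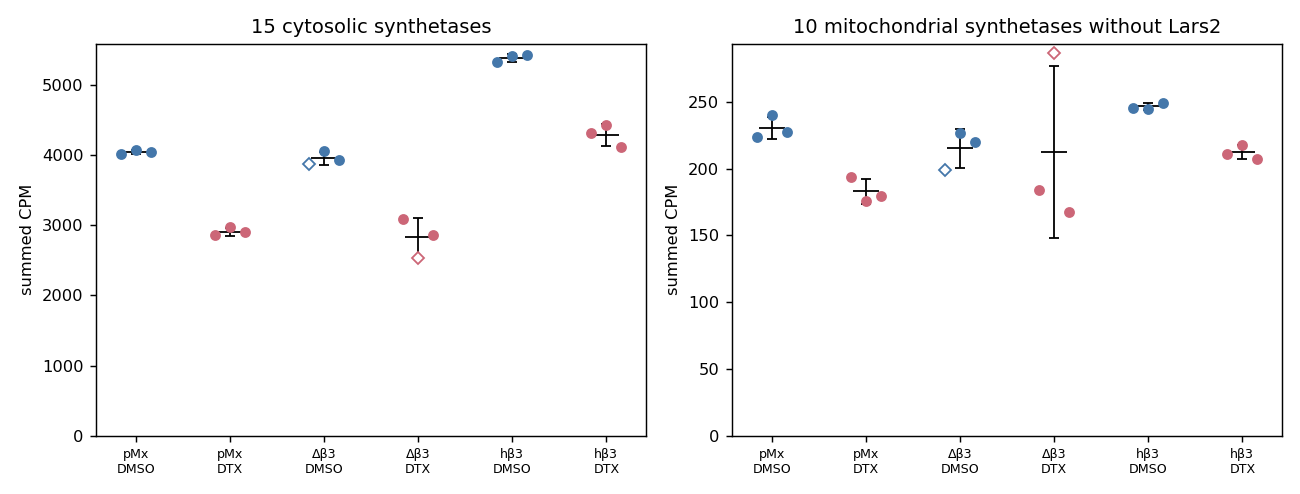
Summed CPM (vertical axis, from 0) of the 15 cytosolic (left) and the 10 mitochondrial synthetase genes without Lars2 (right) in each culture, by line and treatment (DTX, docetaxel), with mean and SD of 3. The cytosolic sums of treated cultures lie below those of untreated cultures in each line; in the right panel the open diamond of Δβ3 docetaxel culture 2, at 286.3 CPM, is above all others.

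Within single lines, 7 of the 15 cytosolic genes and 1 of the 11 mitochondrial genes (Mars2) fell with docetaxel in pMx, where 1.69% of all tested genes fell. In Δβ3, 9 cytosolic genes and Mars2 fell, beside 3.52% of all tested genes. In hβ3, 0 synthetase genes passed edgeR's test, beside 0.238% of all tested genes. At an unadjusted p under 0.05, 10 of the 26 were lower and 0 higher in hβ3, beside 9.65% of all tested genes in either direction. DESeq2 called 7 of the 32 synthetase genes with at least 1 count, beside 420 genes in all. For the cytosolic genes the median log2 fold change was -0.34 in hβ3, -0.46 in Δβ3 and -0.47 in pMx. Values were negative in all 3 lines for 12 of these 15. With 16 libraries the cytosolic genes that fell numbered 12 in pMx (11.0% of all tested genes), 10 in Δβ3 (5.27%) and 10 in hβ3 (5.16%). In that fit 10 cytosolic genes and Mars2 fell in each of the 3 lines.

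The difference between lines in this response was tested directly. With 18 libraries, edgeR called 0 of the 26 genes in any of the 3 differences, and DESeq2 likewise called 0. Of all genes DESeq2 called 33 for hβ3 against pMx, 48 for hβ3 against Δβ3 and 2 for Δβ3 against pMx. Over all tested genes, edgeR called 0.00822% for hβ3 against pMx, 0.0411% for hβ3 against Δβ3 and 0.00% for Δβ3 against pMx. At an unadjusted p under 0.05 there were 0, 5 and 1 synthetase genes, in that order, beside 3.62%, 8.64% and 4.28% of all tested genes. For hβ3 against pMx the differences in log2 response of the cytosolic genes had a median of 0.14 and ran from -0.22 to 0.42. For Yars the difference was 0.25 with a 95% interval of -0.10 to 0.60 (0.07 to 0.45 with 16 libraries), and for Lars 0.24 with -0.08 to 0.55 (0.07 to 0.43). Both intervals with 16 libraries lay above 0, but the adjusted p was 0.15 for Yars and 0.148 for Lars. The 16 libraries called 1 synthetase gene, Dars, for hβ3 against pMx, where 1.25% of all tested genes had a higher response in hβ3. The 3 differences share groups and are not independent.

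With DMSO, Dars had 78.9, 75.2 and 72.5 CPM in the pMx cultures, 50.1, 76.5 and 74.6 in Δβ3 and 63.0, 60.8 and 63.6 in hβ3. With docetaxel, Dars had 55.3, 61.1 and 59.5 CPM in pMx, 68.1, 55.4 and 64.7 in Δβ3 and 61.3, 70.5 and 62.6 in hβ3. In pMx the treated cultures were the lower ones, while the hβ3 groups overlapped. The difference in the log2 response of Dars, hβ3 minus pMx, was 0.42 ± 0.21 (SE; adjusted p = 1) with 18 libraries and 0.42 ± 0.11 (adjusted p = 0.0411) with 16. With 16 libraries the log2 fold change of docetaxel was -0.35 ± 0.08 (adjusted p = 0.00171) in pMx and 0.07 ± 0.08 (adjusted p = 0.662) in hβ3.

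The hβ3 line carried more cytosolic synthetase transcripts than either other line. In DMSO, 5 cytosolic genes were higher in hβ3 than in pMx and 0 lower, beside 4.85% of all tested genes higher and 4.11% lower. These were Aars at 0.39 ± 0.10 (SE; adjusted p = 0.0176), Gars at 0.44 ± 0.12 (SE; adjusted p = 0.0263), Hars at 0.51 ± 0.12 (SE; adjusted p = 0.0105), Rars at 0.72 ± 0.22 (SE; adjusted p = 0.0496) and Tars at 0.44 ± 0.12 (SE; adjusted p = 0.0294), as log2 differences. Against Δβ3 in DMSO, 5 cytosolic genes were higher, Aars, Hars, Iars, Lars and Rars, and 1 mitochondrial gene, Mars2, beside 6.22% of all tested genes higher. For Iars the log2 difference was 0.62 ± 0.12 (SE; adjusted p = 0.00169), for Lars 0.55 ± 0.11 (SE; adjusted p = 0.00184) and for Mars2 0.60 ± 0.12 (SE; adjusted p = 0.00252). The Mars2 means in DMSO were 80.8 ± 0.897 CPM in hβ3 and 53.5 ± 6.95 in Δβ3 (SD, n = 3). Against pMx the Mars2 difference was 0.38 ± 0.12 (SE; adjusted p = 0.0587). Both comparisons use the same hβ3 cultures. The ribosomal precursor Rn45s took 23.8% ± 11.5 of the counts in hβ3 DMSO, 9.20% ± 0.752 in pMx DMSO and 20.4% ± 18.3 in Δβ3 DMSO (SD, n = 3), and luminal markers summed to 2045 ± 55.1, 2416 ± 171 and 3246 ± 184 CPM. Their part in the differences between lines was not tested.

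Rars differed most between hβ3 and the others among the called genes in DMSO. Its means were 791 ± 82.3 CPM in hβ3, 479.9 ± 21.8 in pMx and 414 ± 148 in Δβ3 (SD, n = 3 each). All hβ3 cultures were above all cultures of the other lines. The log2 difference to Δβ3 was 0.93 ± 0.22 (SE; adjusted p = 0.0087) with 18 libraries and 0.65 ± 0.09 (adjusted p = 2.73e-06) with 16. With 16 libraries, hβ3 was higher than pMx in DMSO for 8 cytosolic genes and Mars2, and lower for Dars at -0.29 ± 0.08 (adjusted p = 0.00579). Of all tested genes 13.2% were then higher and 13.5% lower. Against Δβ3, 9 cytosolic genes and Mars2 were higher and Dars was lower, beside 11.1% of all tested genes higher and 12.2% lower.

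With docetaxel, 9 cytosolic genes and Mars2 were higher in hβ3 than in pMx (4.62% of all tested genes higher), and 10 cytosolic genes and Mars2 were higher in hβ3 than in Δβ3 (4.37%). With 16 libraries these were 11 cytosolic and 2 mitochondrial genes in both comparisons (15.2% and 9.58%). Hars, for example, had 266 ± 12.6 CPM in hβ3, 162 ± 21.5 in pMx and 169 ± 8.54 in Δβ3 with docetaxel (SD, n = 3 each). The hβ3 cultures were above all others, with log2 differences of 0.71 ± 0.12 (SE; adjusted p = 0.000931) to pMx and 0.66 ± 0.12 (SE; adjusted p = 0.00196) to Δβ3. Cars was higher in hβ3 by 0.76 ± 0.20 (SE; adjusted p = 0.0266) against pMx and by 0.92 ± 0.21 (SE; adjusted p = 0.00853) against Δβ3. The mean cytosolic sum in hβ3 was 1.33 times that of pMx and 1.36 times that of Δβ3 in DMSO, and 1.47 and 1.52 times with docetaxel. In the direct tests of the response given above, 0 genes were called with 18 libraries.

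Ears2 is the second mitochondrial gene called in hβ3 against both lines with docetaxel and 16 libraries. Against Δβ3 its log2 difference turned from -0.13 ± 0.25 (SE; adjusted p = 0.77) with 18 libraries to 0.41 ± 0.11 (adjusted p = 0.00914) with 16. Between Δβ3 and pMx edgeR called 0 of the 26 genes in DMSO and 0 with docetaxel, beside 0.0411% and 0.0246% of all tested genes in either direction. At an unadjusted p under 0.05 there was 1 synthetase gene in each of these, below the 10.1% and 13.8% of all tested genes. DESeq2 called 0 synthetase genes in either, beside 33 and 10 genes in all. For Aars the log2 difference in DMSO was 0.02 ± 0.10 with a 95% interval of -0.19 to 0.23, and for Gars 0.14 ± 0.12 with -0.11 to 0.39.

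**Figure D5:**
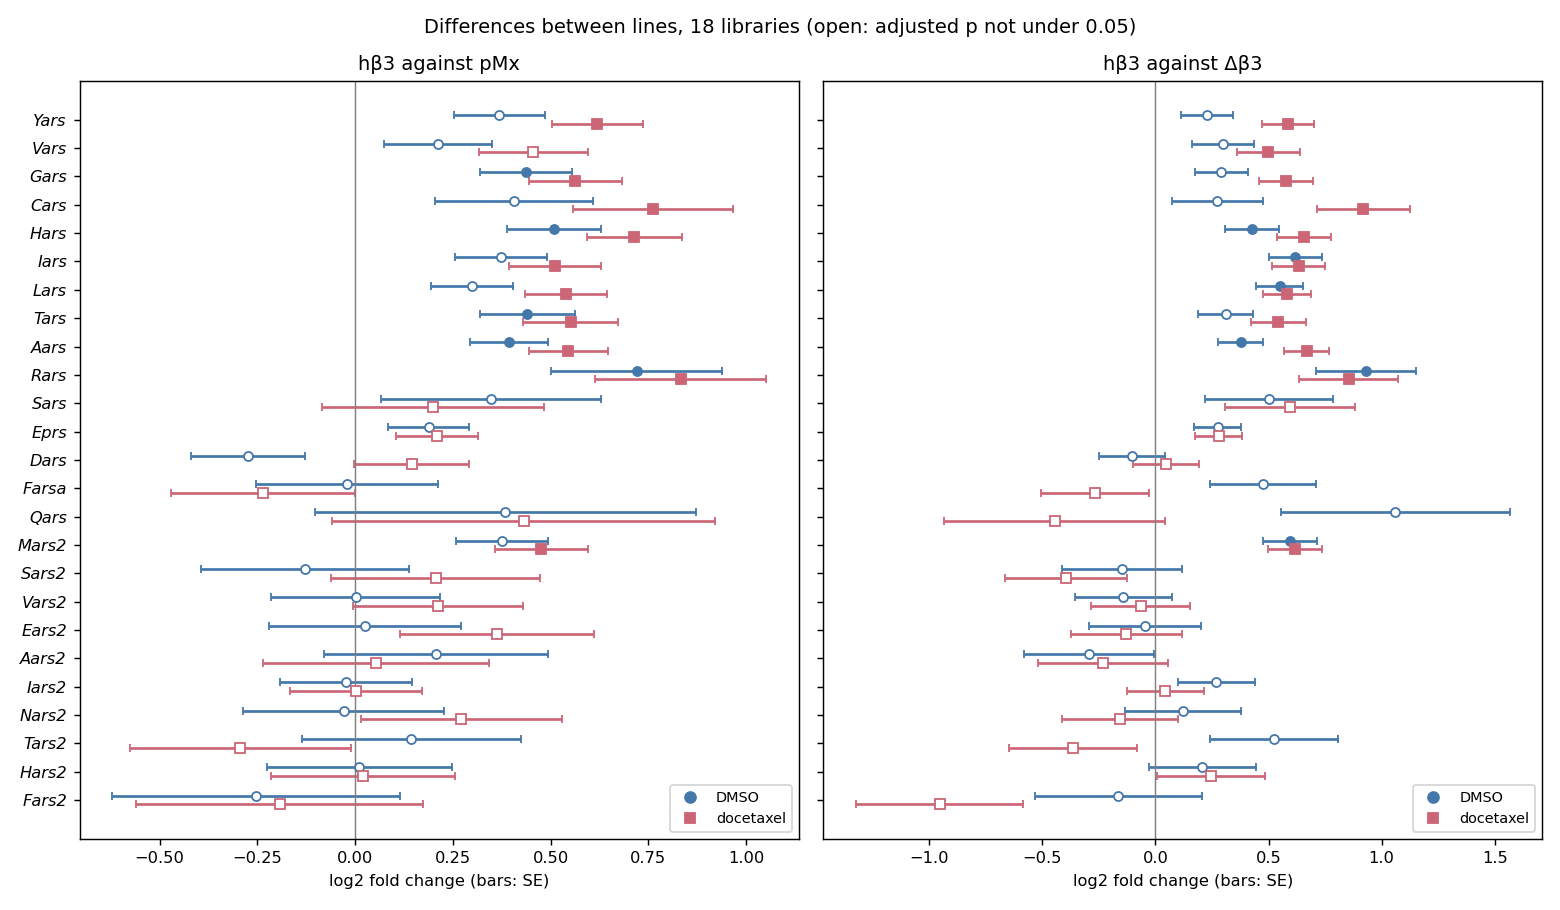
Log2 fold change (horizontal axis, bars are SE) of hβ3 against pMx (left) and against Δβ3 (right) in DMSO (circles) and with docetaxel (squares), 18 libraries, for 25 of the 26 tested synthetase genes (Lars2 is left out); filled symbols passed the test. The cytosolic genes from Yars to Rars lie to the right of 0 in both panels, with 9 and 10 filled squares among the cytosolic genes.

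Promoter sequences were read from the RefSeq table of GRCm38.p6, 250 bases before to 50 after each gene's start, for 26 of the 36 genes, 12 cytosolic and 14 mitochondrial. They were searched on both strands for TGATGNAA, the core of the composite element that ATF4 binds with C/EBP proteins, and for CACGTG, the E-box that MYC binds with MAX. TGATGNAA was present in 5 of the 12 cytosolic promoters (Aars, Gars, Iars, Tars and Yars), in 0 of the 14 mitochondrial ones and in 3.97% of all 32851 promoters of the table. All 5 genes with it fell with docetaxel. Of the 7 cytosolic promoters without it, 5 belong to tested genes, of which 1, Eprs, fell with 18 libraries and 2, Eprs and Dars, with 16. The rest, Farsa, Qars and Sars, were low, with at most 140, 57 and 96 counts in a library. Each of the 5 genes with the motif had at least 923 counts in every library. The part of this difference in counts was not tested. The other 5 cytosolic genes that fell, Cars, Hars, Lars, Rars and Vars, had no promoter in this search, so the motif and the fall cannot be compared over the whole set. CACGTG was present in 4 cytosolic promoters (Aars, Farsb, Iars and Tars), 1 mitochondrial promoter (Ears2) and 7.15% of all promoters. A match is a run of letters and not a measured binding site.

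The stretches around TGATGNAA of 4 of the 5 genes that share it and fell are shown with the match in capitals, 5′ to 3′ on the strand of the gene (RefSeq, GRCm38.p6). For Gars (chr6:55037960-55037989, plus strand) and Tars (chr15:11399655-11399684, minus strand) the match begins 30 and 15 bases before the start. For Iars (chr13:49682126-49682155, plus strand) and Yars (chr4:129189895-129189924, plus strand) it lies just after the start. In 3 of them the gene's strand carries the reverse complement, and in Yars the motif itself.
Gars: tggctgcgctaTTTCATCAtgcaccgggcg
Tars: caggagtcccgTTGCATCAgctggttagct
Iars: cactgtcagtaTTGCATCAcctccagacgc
Yars: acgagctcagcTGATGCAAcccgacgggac
Tars, Iars and Yars share the form TGATGCAA, and Gars has TGATGAAA.

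Genes that work beside the synthetases were counted in the same mean response, with 18 libraries unless stated. The shares of all tested genes to set beside these counts are 7.64% lower and 7.85% higher with 18 libraries, and 14.3% and 15.7% with 16. Of the 3 scaffold genes of the multi-synthetase complex 2 fell, Aimp2 at -0.58 ± 0.18 (adjusted p = 0.0328) and Aimp1 at -0.27 ± 0.09 (adjusted p = 0.0394). The third, Eef1e1, had a log2 fold change of -0.30 ± 0.19 (adjusted p = 0.325) and was called with 16 libraries. Of 5 tested genes that edit mischarged tRNA or free peptidyl-tRNA 1 fell, Aarsd1, which removes serine from alanine tRNA, at -0.50 ± 0.13 (adjusted p = 0.0135), and 2 fell with 16 libraries. Both tested genes of the selenocysteine pathway fell in either fit, the selenophosphate synthetase genes Sephs1 at -0.57 ± 0.15 (adjusted p = 0.0169) and Sephs2 at -0.44 ± 0.08 (adjusted p = 0.000982). In Δβ3 DMSO culture 1, high in heart muscle transcripts, Aarsd1, Sephs1 and Sephs2 were at 266.3, 16.4 and 319.6 CPM. Culture 2 of that group had 133.4, 8.22 and 209.7 CPM, and culture 3 had 127.4, 9.61 and 221.9 CPM. Aimp2 and Eef1e1 were instead lowest of the group in culture 1, at 3.16 and 12.8 CPM. Gatc, Mtfmt and Qrsl1, which serve mitochondrial tRNA charging outside the family, were not called by edgeR with 18 libraries. Gatc, at -0.24 ± 0.09 (adjusted p = 0.079), had an unadjusted p under 0.05 and was called with 16.

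Of 25 tested genes of tRNA maturation and modification 7 fell and 0 rose, with a median of -0.28, and 12 fell with 16 libraries. Among them were Xpot, which exports tRNA from the nucleus, at -0.40 ± 0.07 (adjusted p = 0.000781) and Trmt61a, a subunit of a tRNA adenosine methyltransferase, at -0.86 ± 0.17 (adjusted p = 0.00183). Trmt61a was low, at 1.09 to 7.38 CPM, and lowest in Δβ3 docetaxel culture 2. Of 18 tested genes of RNA polymerase III and its factors, which transcribe tRNA genes, 2 fell and 0 rose, with a median of -0.09. The subunit gene Polr3d was 1 of them, at -0.80 ± 0.24 (adjusted p = 0.0332). Its level was also low, 0.47 to 5.21 CPM, and lowest in Δβ3 docetaxel culture 2. With 16 libraries 6 of 19 fell and 1 rose. Of 12 cytosolic translation factors 6 fell (7 with 16 libraries) and 0 rose (median -0.35), including the elongation factor subunit Eef1g at -0.35 ± 0.09 (adjusted p = 0.00922), the eIF2 subunit Eif2s3x at -0.37 ± 0.09 (adjusted p = 0.0094) and the release factor Etf1 at -0.27 ± 0.07 (adjusted p = 0.00918). Of 7 mitochondrial translation factors 1 fell, the elongation factor Tsfm at -0.46 ± 0.15 (adjusted p = 0.0461), and the median was -0.03. With 16 libraries 2 fell. Tsfm was at 127.5 CPM in Δβ3 DMSO culture 1, a library high in heart muscle transcripts, and at 51.9 and 56.5 CPM in the other cultures of that group.

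Of 21 tested genes in the list of ATF4 and its other known targets, 12 fell and 2 rose, with a median of -0.64. With 16 libraries 13 of 22 fell and 4 rose. The 3 with the smallest p were Chac1, which degrades glutathione, at -0.84 ± 0.08 (adjusted p = 1.95e-06), and the serine synthesis genes Psat1 at -0.83 ± 0.10 (adjusted p = 2.15e-05) and Phgdh at -0.73 ± 0.09 (adjusted p = 2.32e-05). Phgdh was at 526.4 CPM in Δβ3 DMSO culture 1 and at 364.6 and 340.8 CPM in the other cultures of that group. With DMSO, Chac1 had 25.1, 30.3 and 30.5 CPM in pMx, 25.6, 26.0 and 25.0 in Δβ3 and 72.2, 70.9 and 74.3 in hβ3. With docetaxel, Chac1 had 13.0, 13.7 and 13.1 CPM in pMx, 14.2, 16.5 and 12.9 in Δβ3 and 42.6, 49.0 and 52.2 in hβ3. Treated cultures were lower in every line, and hβ3 had the highest values of both treatments. Both genes that rose, chosen here after their values were seen, respond to several kinds of stress, Ddit4 at 0.48 ± 0.12 (adjusted p = 0.0112) and Sesn2 at 0.60 ± 0.11 (adjusted p = 0.00147). Atf4 itself was low in counts, with 740 over all libraries, and fell by 1.05 ± 0.28 on the log2 scale (adjusted p = 0.0163). TGATGNAA was found in 8 of the 24 promoters available for this list of 26 genes.

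Of 8 genes for eIF2 kinases and their regulators 2 rose and 1 fell, and with 16 libraries 4 rose and 1 fell. Eif2ak3, the kinase PERK of the endoplasmic reticulum, was at 0.55 ± 0.11 (adjusted p = 0.00262), and Eif2ak2, the kinase PKR that binds double-stranded RNA, at 0.62 ± 0.13 (adjusted p = 0.00334). Ppp1r15b, a subunit of the phosphatase that acts on eIF2, was at -0.31 ± 0.09 (adjusted p = 0.0231). Of 4 tested genes of the MYC, MAX and MLX network 1 rose, the MYC antagonist Mxd1, at 0.84 ± 0.10 (adjusted p = 2.38e-05), and 3 rose with 16 libraries. Myc had 51 counts over all libraries and was not tested. In DMSO, 4 of the 21 tested genes of the ATF4 list were higher in hβ3 than in pMx and 1 lower (4.85% and 4.11% of all tested genes). Against Δβ3 in DMSO, 5 were higher and 2 lower, beside 757 and 831 of all 12171 tested genes. With 16 libraries 9 of 22 were higher and 2 lower against pMx (13.2% and 13.5%), and 10 and 3 against Δβ3 (11.1% and 12.2%). With docetaxel, 7 of the 21 were higher in hβ3 than in pMx and 0 lower, beside 4.62% of all tested genes higher and 3.82% lower. With 16 libraries 12 of 22 were higher and 2 lower (15.2% and 12.1% of all tested genes). Against Δβ3, 9 of the 21 were higher and 0 lower (4.37% and 5.67%), and 10 of 22 were higher and 3 lower with 16 libraries (9.58% and 10.3%). Of the 3 scaffold genes, 2 were higher with docetaxel in hβ3 than in pMx and 1 higher than in Δβ3. With 16 libraries these were 3 and 2, and 0 were lower in either fit.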

How the data were processed

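RNA was sequenced from 18 cultures, 3 in each of 6 groups, as single 50-base reads after removal of ribosomal RNA (1 µg of total RNA, 13 PCR cycles), per the labels' protocols. The authors deposited raw read counts for 63759 transcript models of 32765 symbols, made with FastQC, HISAT2 and featureCounts on mm10 per the submitters' processing notes. For tool versions, annotation, strand and multi-mapping settings the sources used here give nothing. Model lengths in bases are a further column of the deposited table, in another unit, and were not used.

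Counts were summed per symbol (13159 symbols have more than 1 model). Genes were kept with filterByExpr (minimum count 10), scaled by TMM and tested with edgeR 4.0.16's robust quasi-likelihood F-test (R 4.3.3), two-sided, with 1 coefficient per group over 18 libraries and Benjamini-Hochberg adjustment over all 12171 tested genes. A call is an adjusted p under 0.05. Intervals are at 95% from the fitted SE. Alternatives were 16 libraries (12383 genes), RLE scaling, no low-count filter, only the top model of each symbol, only the compared groups, a replicate block, DESeq2 1.42.0 and each library left out. The script was tested on simulated data with 1 spread for all genes. That spread was near the 13.2% variation of the 16 libraries, so the test does not cover the 36% of the 18 libraries. The members and gene lists were chosen with earlier results of these data known. Values per culture are given for members called in the mean response (up to 8 per set by p), in a single line or in a difference of responses, and for up to 6 per pair of lines in DMSO; for some of them, means are given. Of each pathway list up to 3 genes with the smallest p are named, and any other gene is marked as chosen after its values were seen or is a library marker. A few genes and 1 promoter stretch are not reported here.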

Additional observations from a re-analysis of the deposited data

How the results depend on the processing

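Counts of called synthetase genes with 18 libraries changed by more than 1.5 times under these settings. With 16 libraries, calls for docetaxel went from 8 to 15 in pMx and from 0 to 11 in hβ3. They went from 0 to 1 for the hβ3 minus pMx response. For hβ3 in DMSO they went from 5 to 10 against pMx and from 6 to 11 against Δβ3. In the same order, calls over all tested genes went from 439 to 2630, 141 to 1539, 1 to 285, 1090 to 3311 and 1588 to 2879. Without the low-count filter synthetase calls were 4 for docetaxel in pMx, 5 in Δβ3 (10 with the filter) and 0 for hβ3 against pMx in DMSO. All genes called were then 298, 557 and 841 (439, 834 and 1090 with the filter). With only the compared groups, synthetase calls for docetaxel were 14 in pMx, 0 in Δβ3 and 10 in hβ3. For hβ3 in DMSO they were 10 against pMx and 1 against Δβ3, and with docetaxel 5 against Δβ3 (11 in the shared fit). All genes called were 2240, 0, 1388, 2834, 828 and 300 in that order (439, 834, 141, 1090, 1588 and 1222 in the shared fit). DESeq2 called 7 synthetase genes for docetaxel in hβ3 and 9 for hβ3 against pMx in DMSO, beside 420 and 1452 genes in all. The causes of these shifts were not tested.

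Leaving out 1 library at a time gave 11 to 14 calls for the mean response. The range was 2 to 12 for docetaxel in pMx, 5 to 13 in Δβ3 and 0 to 4 in hβ3, where the 4 came without Δβ3 DMSO culture 1 or without Δβ3 docetaxel culture 2. Those 2 fits called 314 and 555 genes in all for docetaxel in hβ3, beside 141 with 18 libraries. For hβ3 against pMx the range of synthetase calls was 0 (as without pMx DMSO culture 1 or 3, or hβ3 DMSO culture 1) to 9 in DMSO and 6 to 12 with docetaxel. For hβ3 against Δβ3 the ranges were 4 to 9 and 8 to 13. With 16 libraries 51 of 338 log2 values of synthetase genes changed sign, such as Fars2 for docetaxel in Δβ3, from 0.87 to -0.09. Of these, 1 was called in either fit, Ears2 in hβ3 against Δβ3 with docetaxel, which turned to 0.41 ± 0.11 (SE). The fit limited to compared groups was not run for the mean response, which uses all groups.

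The labels do not say whether same-numbered cultures share a batch, and the main fit had no replicate block. Over 45 pairs of same-numbered libraries, deviations from group means correlated at -0.53 to 0.46 (median 0.05), 18 of them over 0.1. Of 18 libraries, 10 correlated best with their own number. These values do not settle whether the numbers mark pairs. A replicate block gave 3 synthetase calls for hβ3 against pMx in DMSO, beside 1003 genes in all (5 and 1090 without the block). Low members such as Qars rest on as few as 7 counts in a library.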
